A study of Mus musculus with 6 samples.

Results

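Recovery between 8 h and 24 h after a single bout of electrical pacing was followed in mouse skeletal muscle. The difference described is the array of muscle taken 24 h after pacing minus the array of muscle taken 8 h after pacing. It covers the 12080 of 13872 probes with a measured value on both arrays. The other 1792 probes stood at exactly 0, taken as not measured, on at least 1 of the arrays. Of the 12080 probes, 5888 carried exactly 1 gene symbol, and these gave 3646 of the 3939 named genes of the table. Membership rests on both arrays having a value and does not use the size of the difference; the genes named below were in part chosen for it.

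In both groups the muscle was stimulated for 3 h through an implanted pacer and then left for 8 h or 24 h before harvest, and total RNA was extracted. Each sample was hybridised on a 2-channel spotted array against the same reference RNA, named Pre in the labels, from control muscle; Pre cancels in the difference between the arrays. Each group had 1 array, with no replicates, so no test was possible, no p-value is given, and the values below compare 2 arrays rather than 2 conditions. Strain, genotype, age, the muscle sampled and the number of mice behind each RNA are not given in the sources used here. No transgene or deletion is named, and the surgery that placed the pacer was shared by both groups. The groups also differ in the time elapsed since surgery and possibly in the time of day, which cannot be told apart from recovery with these 2 arrays.

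Values are log2 ratios of sample to Pre, each array centred on its median, so that 1 unit is a factor of 2; a gene's value is the mean over its probes measured on both arrays. Because Pre is named as the reference, sample over Pre is the likely direction of the ratio; which dye marked which RNA is not given in the sources used here, and every direction below rests on that reading. The spread quoted beside a gene is the SD among its own probes (probe SD), not among animals. Among the 987 genes with several probes its median was 0.212 and its 90th percentile 0.497 for the difference; the other 2659 genes had 1 probe and no such check. Spotted cDNA can bind transcripts of close relatives, so members of the ribosomal protein, globin, amylase, actin, tubulin and myosin families are uncertain as to the family member.

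The arrays differed in spread, and several results turn on it. The robust SD of the log2 ratios was 0.242 at 8 h and 0.399 at 24 h, a ratio of 1.65; it was 0.292, 0.176 and 0.445 at 0 h, 1 h and 3 h. Every difference was therefore also computed with the arrays scaled to one robust spread, which multiplied the 8 h ratios by 1.33 and the 24 h ratios by 0.802, and is called the scaled difference. Scaling assumes that the ratios of most genes spread equally at both times. Whether the wider spread at 24 h came from the muscle or from the arrays was not tested.

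Contracting muscle raises the transcription of metabolic regulators, stress proteins and growth signals, and these programs have different timing. Genes of fuel switching and protein breakdown respond early, while growth of the translation machinery and cytoskeletal repair proteins are known as later parts of the response. Ribosomal protein mRNAs commonly begin with a C followed by a run of pyrimidines at the cap, through which growth signalling controls their translation. Chaperone genes are driven by heat shock factor, which binds inverted pairs of GAA blocks in their promoters.

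Both sequence features are shown for members of the gene groups that stood higher at 24 h before scaling, together with 1 member of each that stood lower. Sequences are from the RefSeq promoter table on GRCm38.p6 (250 bases before and 50 bases after each annotated start), written 5′ to 3′ on the strand of the gene. In the ribosomal protein genes the capitals mark the run of C and T that starts at the annotated start, 15 bases into the window.
Rpl15 (chr14:18270972-18271001, minus strand): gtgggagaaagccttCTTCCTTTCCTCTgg
Rpl35 (chr2:39005117-39005146, minus strand): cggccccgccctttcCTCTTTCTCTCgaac
Rps6 (chr4:86857353-86857382, minus strand): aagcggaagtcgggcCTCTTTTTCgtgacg
Rps15a (chr7:118116133-118116162, minus strand): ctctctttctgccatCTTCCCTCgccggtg
Rps18 (chr17:33955651-33955680, minus strand): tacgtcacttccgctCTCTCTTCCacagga

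A C at the start followed by at least 4 pyrimidines was found in 10 of 62 promoters of the measured ribosomal protein genes (16.1%; 51 of 63 genes matched the table), beside 823 of 32851 promoters (2.51%) in the whole table. The first 4 genes shown had differences of 0.40, 0.39 (3 probes, probe SD 0.27), 0.37 (3 probes, probe SD 0.37) and 0.50 (2 probes, probe SD 0.05), while Rps18, with a run of 9, stood at -0.28. Of all 10 ribosomal protein genes with such a run, 7 had differences above 0 and 3 below, with a median of 0.18. Over all 63 measured ribosomal protein genes 52 lay above 0, with a median of 0.27. The first 4 genes shown were the highest of the 10. In the chaperone genes the capitals mark heat shock element pairs, searched as GAANNTTC and TTCNNGAA; each reads the same on both strands, and neighbouring pairs can share a block.
Hspe1 (chr1:55088053-55088092, plus strand): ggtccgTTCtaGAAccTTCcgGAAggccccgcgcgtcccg
Dnaja1 (chr4:40722328-40722367, plus strand): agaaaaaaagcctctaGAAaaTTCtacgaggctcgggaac
Cct5 (chr15:31601857-31601896, minus strand): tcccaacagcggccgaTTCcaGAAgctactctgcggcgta
Fkbp4 (chr6:128438784-128438823, minus strand): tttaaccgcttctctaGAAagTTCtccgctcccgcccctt

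A pair was found in 14 of 34 promoters (41.2%) of the Hsp70, Hsp90 and partner list, for which 26 of 31 genes matched, beside 15.06% of all promoters. The 14 promoters belonged to 12 genes, since a gene can have several annotated starts. Hspe1, with 3 overlapping pairs, stood at 0.70, Dnaja1 at 0.52 and Cct5 at 0.49 for the difference, while Fkbp4 stood at -0.49. Other members with a pair included Hspd1 at 0.41, Hsph1 at 0.32, Stub1 at 0.27, Dnajb6 at -0.11 and Cct2 at -0.47. Hspd1 and Hspe1 lie on opposite strands and share the same stretch with its pairs. The first 3 chaperone genes shown were the highest of the members named here. Among the genes called below, the share with a pair was 3 of 19 promoters (15.8%) for those higher and 2 of 17 (11.8%) for those lower. The metal response element TGCGCNC, searched on both strands, was in 15.8% and 23.5% of those promoters against 15.39% of all, the E-box CACGTG in 5.26% and 17.6% against 7.15%, and the cAMP response element TGACGTCA in 0% and 5.88% against 1.79%. These matches are descriptions of letters in the window.

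At 24 h 20 genes stood at least 2-fold higher than at 8 h and 18 at least 2-fold lower, 0.549% and 0.494% of the 3646 genes; these counts are themselves the background for everything below. The median difference over all genes was 0.01, with 1894 genes above 0 and 1752 below. After scaling there were 15 higher (0.411%) and 25 lower (0.686%), so the share of higher genes among those called went from 52.6% to 37.5%. All 38 genes kept their sign after scaling, but only 14 of them stayed past 2-fold, 9 higher (0.247%) and 5 lower (0.137%). Scaling can turn the sign of a 2-fold difference only where the 8 h ratio lies far from Pre, so the kept sign is a weak check. At probe level, 122 probes (1.01%) stood 2-fold higher and 98 (0.811%) lower. Of these, 63 and 50 carry no single gene symbol, with extremes of 2.35 and -3.03, and are not named here.

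**Figure D1:**
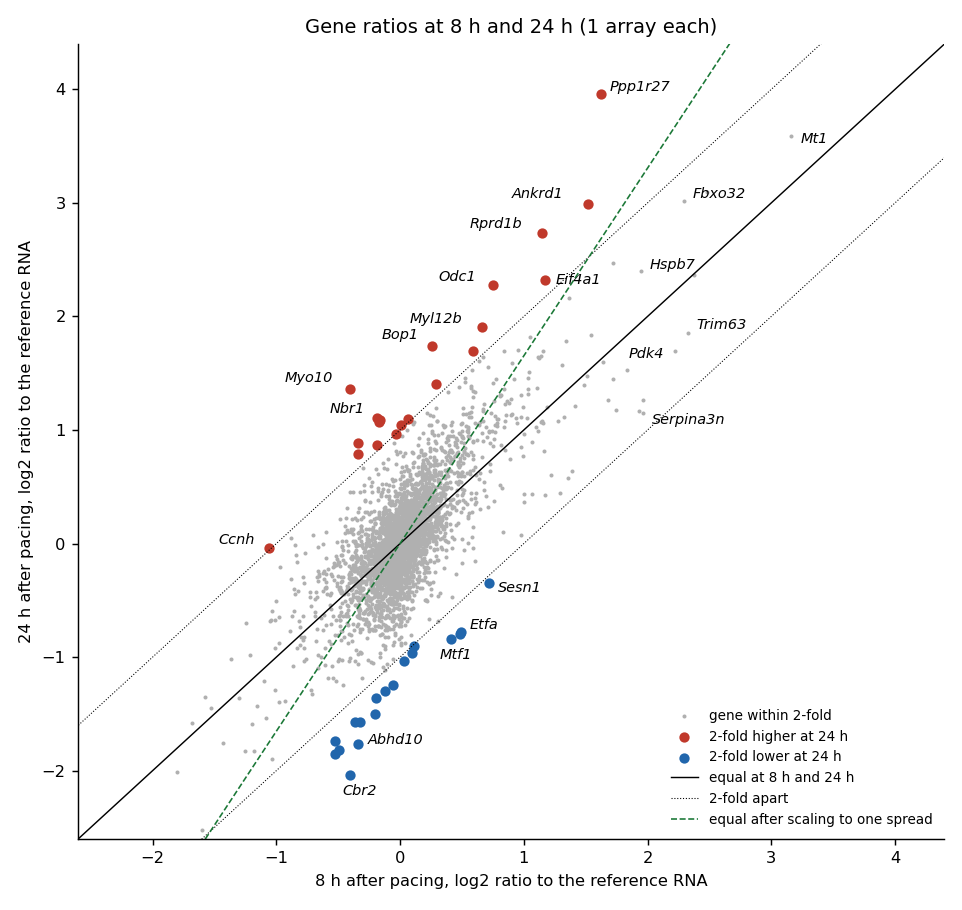
Log2 ratio to Pre at 8 h (horizontal axis) against 24 h (vertical axis) for 3646 genes, 1 array each. Red and blue points are the 20 genes at least 2-fold higher and the 18 at least 2-fold lower at 24 h; the dotted lines mark 2-fold, and the dashed green line, with a slope of 1.65, marks equal values after scaling. Mt1, Trim63 and Pdk4 lie near the solid line of equal ratios and well below the dashed one, while Etfa, Mtf1, Sesn1 and Myo10 lie far from both.

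At 8 h the ratios of the higher and the lower genes overlapped. Of the 20 higher genes, 11 lay above Pre at 8 h and 19 at 24 h, with ratios from -1.06 to 1.62 (median 0.04) at 8 h and from -0.04 to 3.96 (median 1.23) at 24 h. Of the 18 lower genes, 7 lay above Pre at 8 h and 0 at 24 h; their ratios ran from -0.53 to 0.72 (median -0.16) at 8 h and from -2.04 to -0.35 (median -1.33) at 24 h. Single probes carried 15 of the higher and 17 of the lower genes. Around the threshold, Plin2, which coats lipid droplets, stood just short of 2-fold higher at 0.98, the phosphatase gene Dusp13 at 0.97 and the tRNA methyltransferase gene Alkbh8 at 0.96. On the lower side, Patj, a scaffold of tight junctions, stood at -0.997, the adrenergic receptor gene Adra1b at -0.98 and Aox3 at -0.95. Just past the threshold lay Pmepa1 at 1.00 and Hbb-bh1 at -1.02.

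Ppp1r27, which codes for a muscle regulatory subunit of protein phosphatase 1, had the highest difference of any named gene. Its ratio to Pre was 0.43 at 0 h, then 0.25 (1 h), 1.62 (8 h) and 3.96 (24 h), with no measured value for 3 h. That is 5.04-fold higher at 24 h than at 8 h on 1 probe, a log2 difference of 2.33 that scaling brought to 1.02. The value for 24 h was the highest gene ratio of that array. With zeros kept as values the difference was 1.17, since another probe of the gene stood at 0.

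Single genes of the titin spring and of the cytoskeleton outside the sarcomere were among those higher. Ankrd1, a stretch-responsive ankyrin repeat protein of the titin spring and the nucleus, went from 1.52 at 8 h to 2.99 at 24 h after 0.62, 0.15 and 0.96 at 0 h, 1 h and 3 h. Its 3 probes each stood higher at 24 h, by 0.65, 2.09 and 1.68 (mean 1.47, probe SD 0.74). The scaled difference was 0.39, because the 8 h ratio was already high. Its relative Ankrd23, which binds the same region of titin, was near Pre at 8 h, at -0.05, and stood at 0.88 at 24 h. The difference of 0.94 was measured on 14 probes that ran from -0.40 to 1.41 (probe SD 0.52) and was 0.78 after scaling. The lists these genes belong with showed no common direction: the 36 Z-disc, M-band and titin-associated genes had a median of -0.03, with 17 above 0 and 19 below, which scaling turned to 0.11, and the 22 stretch and injury responsive genes had a median of 0.05, with 12 above and 10 below (0.06 scaled).

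Myl12b codes for a regulatory light chain of non-muscle myosin, the motor of cell shape and contraction outside the sarcomere. Its ratio was 0.66 at 8 h and 1.91 at 24 h, and its 5 probes differed by 0.10, 0.95, 1.5, 1.79 and 1.89 (mean 1.25, probe SD 0.74; scaled 0.65). All 5 lay above 0, although 1 of them barely moved. With zeros kept as values the Myl12b difference was 0.59. Myo10, the myosin of filopodia, stood below Pre at 8 h (-0.41) and at 1.36 at 24 h, a difference of 1.77 that remained 1.63 after scaling. The small GTPase gene Rhoc, which acts on actin, stood at 0.06 and 1.10, and its difference of 1.03 was 0.80 scaled. Over the list of 29 non-muscle actin, tubulin and cytoskeleton genes the median difference was 0.16, with 21 above 0, and 0.08 after scaling, also with 21 above 0. Pfn1 (profilin) at 0.61, Tuba1a at 0.60 and Actb at 0.52 followed Myl12b, and Tubb5 was the lowest at -0.46. Actg1, the close relative of Actb, stood at 0.02 on 4 probes (probe SD 0.19), and the spots may not separate the 2 actins. Of the 29, 3 (10.3%) stood 1.5-fold higher, beside 4.17% of all genes.

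Genes of growth and protein synthesis form the second set. Odc1, the first enzyme of polyamine synthesis, took the ratios 0.92, 0.47, 1.5, 0.75 and 2.28 over the 5 paced arrays from 0 h to 24 h. Both of its probes were higher at 24 h than at 8 h, by 1.65 and 1.41, giving 1.53 (probe SD 0.17; scaled 0.84). Sat1, which acetylates polyamines for breakdown, stood the opposite way, from 1.07 at 8 h to 0.44 at 24 h, a difference of -0.62 and -1.06 scaled. Over the 8 polyamine genes the median was -0.14 in both versions, so the list did not share a direction.

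Bop1, which is needed to process the RNA of the large ribosomal subunit, went from 0.26 to 1.74 on 1 probe, a difference of 1.48, which was 1.05 scaled. Polr1c, a shared subunit of RNA polymerases I and III, stood at 0.23 and 1.04 (difference 0.81, scaled 0.53). Over the 19 genes of ribosome biogenesis the median difference was 0.22, with 16 above 0, and 0.05 after scaling, with 11 above 0. Only 3 of the 19 had several probes, and the median of these was 0.0065. Nsa2, with 4 probes, stood at 0.0065 and Gtpbp4, with 3, at -0.06, so the list's shift rests mainly on genes with 1 probe. Eif4a1, the RNA helicase of the cap-binding complex, took the ratios 1.35, 0.03, 0.10, 1.17 and 2.32 over the same 5 arrays. Its difference of 1.15 was 0.31 after scaling. Eif4g2, which promotes cap-independent initiation, had 7 probes that all stood higher at 24 h, from 0.36 to 0.98 (mean 0.73, probe SD 0.24; scaled 0.45). Its difference was 0.58 with zeros kept. The 39 translation factor genes had a median difference of 0.27, 30 above 0, and 0.07 scaled, 26 above 0. The lowest was Eif4ebp3, an inhibitor of cap-dependent initiation, at -0.38, followed by Eif2ak4, a kinase that halts initiation, at -0.28.

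The 63 cytosolic ribosomal protein genes had a median ratio to Pre of 0.25 at 8 h and 0.48 at 24 h. Their median difference was 0.27, with 52 of 63 above 0, beside 51.9% of all genes. After scaling the median was 0.07 and 40 of 63 lay above 0. Of the 63 members, 4 (6.35%) stood 1.5-fold higher, beside 4.17% of all genes. The highest, Rpl3, rests on 2 probes that disagree, at -0.03 and 2.10 (mean 1.04, probe SD 1.51); the next, Rpl27a, has 2 probes that agree at 0.68. Rps4x was the lowest at -0.37, and Rpl3l, the striated-muscle counterpart of Rpl3, stood at -0.27 on 2 probes. Small differences in many members thus make up the list's median. Its size depended on the scaling: 0.07 with one robust spread or quantile normalisation, and 0.14 with one plain SD.

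**Figure D2:**
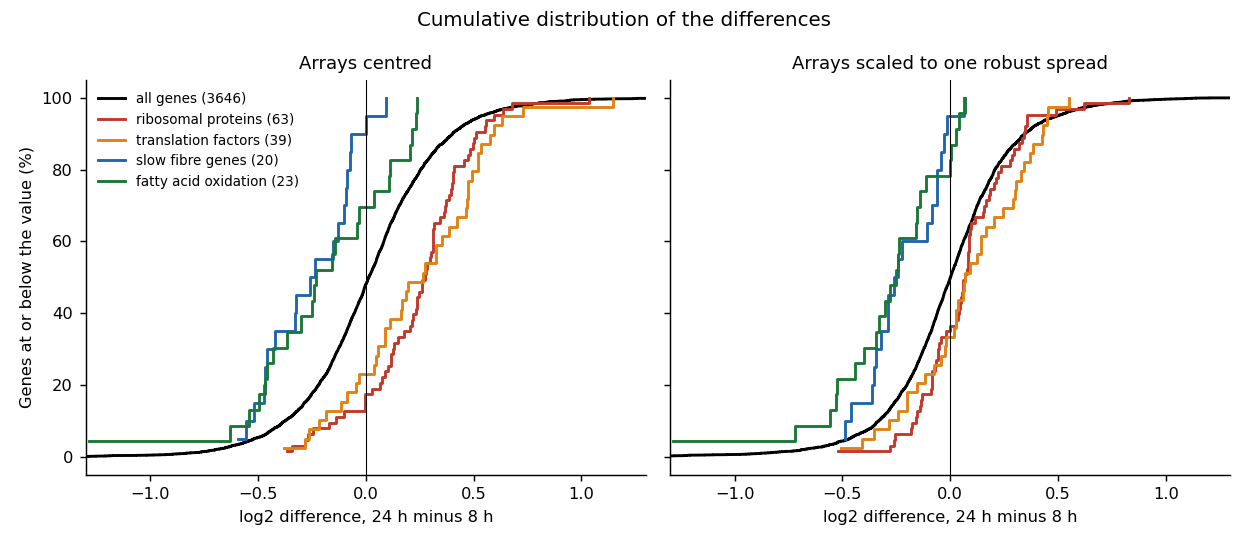
Cumulative share of genes (vertical axis, %) by log2 difference of 24 h minus 8 h (horizontal axis), for all 3646 genes and 4 lists, with the arrays centred (left) and scaled to one robust spread (right). The ribosomal protein and translation factor curves lie to the right of all genes on the left panel and close to them on the right panel; the slow fibre and fatty acid oxidation curves lie to the left in both.

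Among stress and quality-control genes, the cytosolic chaperone and proteasome lists stood higher before scaling and not after it. The 31 Hsp70, Hsp90 and partner chaperone genes had a median difference of 0.22, with 21 above 0, which became -0.01 with 15 above 0 after scaling. Hspa8, the constitutive Hsp70, had 11 probes with ratios from 0.83 to 1.33 at 8 h and from 1.35 to 2.05 at 24 h, each of them higher at 24 h. Its mean difference of 0.53 (probe SD 0.16) turned to -0.16 after scaling. Dnajb1, a co-chaperone of Hsp70, is the member least affected by scaling: it stood at 1.12 at 0 h, at -0.20 at 8 h and at 0.66 at 24 h, a difference of 0.85 and 0.79 scaled. Bag1, a nucleotide exchange factor of Hsp70, was the lowest at -0.63 (2 probes, probe SD 0.61), and Bag3, which directs damaged filamin to autophagy, stood at -0.22 over 6 probes (probe SD 0.47).

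Among the 4 small heat shock proteins, Hspb8 went from 1.05 to 1.82 and Hspb7, the cardiovascular form, from 1.94 to 2.40. The 5 Hspb7 probes differed by 0.08 to 0.63 (mean 0.46, probe SD 0.22), and scaling turned the mean to -0.65. Cryab, the crystallin that guards desmin, stood at 0.31 and 0.96 (difference 0.65, 3 probes, probe SD 0.84; scaled 0.36), and Hspb1 at 0.04 and -0.33. Their median difference was 0.55, and -0.13 after scaling. In the endoplasmic reticulum list of 13 genes the median was 0.17, with 10 above 0, and 0.10 scaled, with 9 above 0. Calr and Pdia3, which fold glycoproteins, differed by 0.79 and 0.78, and by 0.50 and 0.46 after scaling. Atf4, the transcription factor of the integrated stress response, stood at 1.84 and 1.53, with all 5 probes lower at 24 h (mean -0.31, probe SD 0.21; scaled -1.21).

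Nbr1, a receptor that delivers ubiquitinated cargo to autophagosomes, stood at -0.19 at 8 h and 1.11 at 24 h. Its difference of 1.29 was 1.14 scaled, on 1 probe. It was the highest of 21 atrophy and autophagy genes, whose median was -0.01 and -0.14 scaled. Fbxo32, the ubiquitin ligase atrogin-1, went from 2.29 to 3.01 (difference 0.72), which scaling turned to -0.62. Trim63, the ligase MuRF1, went the other way on the mean, from 2.32 to 1.86, but its 2 probes disagreed, at -1.42 and 0.48. The 25 proteasome genes had a median difference of 0.12, which scaling turned to -0.13.

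**Figure D3:**
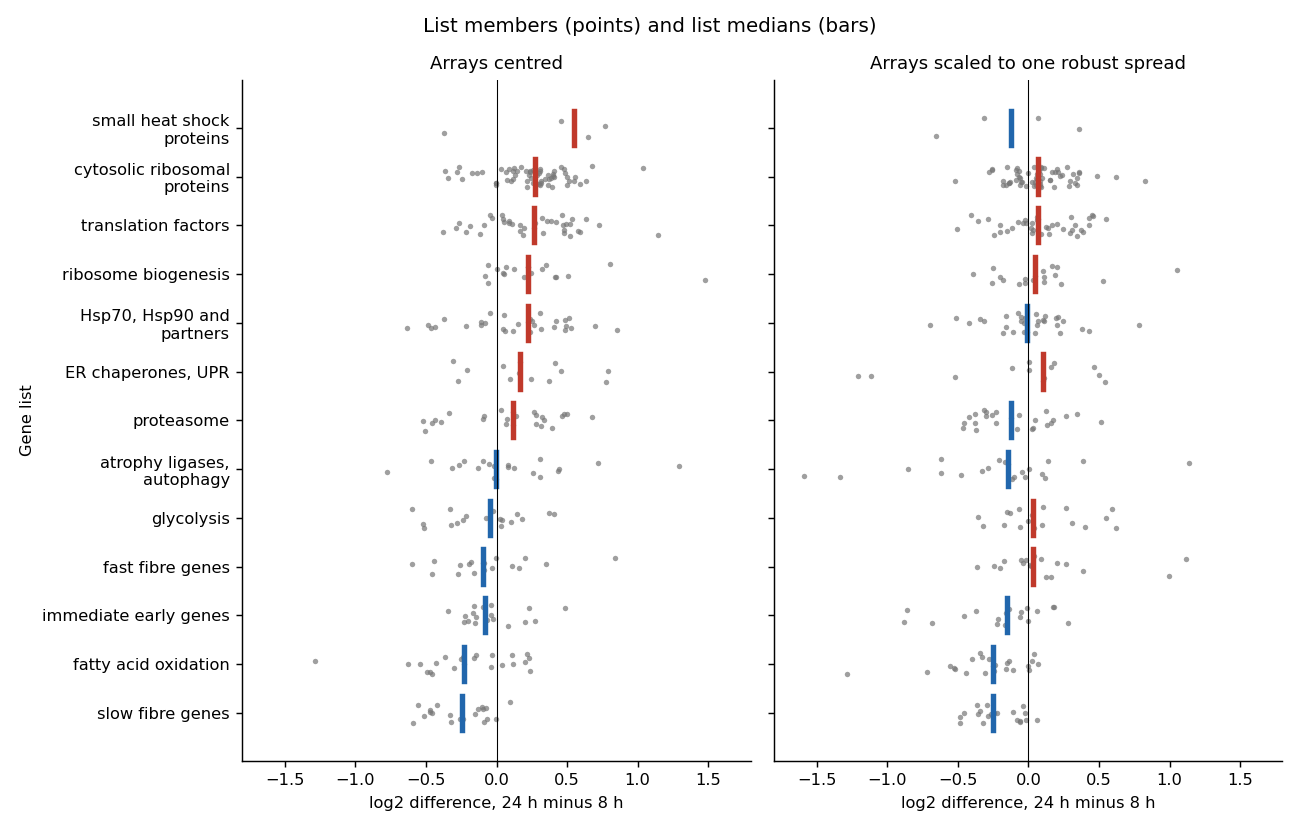
Log2 difference of 24 h minus 8 h (horizontal axis) for the members of 13 gene lists (grey points) and the list medians (bars, red above 0 and blue below), with the arrays centred (left) and scaled to one robust spread (right). The bars of the small heat shock, Hsp70, proteasome, glycolysis and fast fibre lists change sides. Those of the slow fibre and fatty acid lists stay at about -0.25 and -0.23 or lower.

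Signalling and trafficking genes completed those at least 2-fold higher, each on 1 probe unless stated. Rprd1b, which binds the tail of RNA polymerase II, took the ratios 0.42, 0.68, 1.26, 1.15 and 2.74 over the 5 arrays, a difference of 1.59 (scaled 0.68). Pmepa1, an inhibitor of TGF-beta signalling, differed by 1.00 (probes 0.50 and 1.51), and Smad3, the transducer of that pathway, by 1.06 (scaled 0.95), from -0.19 to 0.87. Notch4, a receptor of endothelium, stood at -0.34 and 0.89 (difference 1.23, scaled 1.16). Ramp1, a partner of the receptor for the nerve peptide CGRP, stood at 0.59 and 1.70 (difference 1.11, scaled 0.58). The vesicle and Golgi genes Vta1 and Golph3l differed by 1.24 and 1.25 (scaled 1.08 and 1.09), and Tex2 by 1.11. Amy1, an amylase, differed by 1.13 (scaled 1.09; 0.55 with zeros kept). Ccnh, the cyclin of the kinase that activates other cyclin-dependent kinases, was the 1 higher gene that remained below Pre, at -1.06 and then -0.04.

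**Figure D4:**
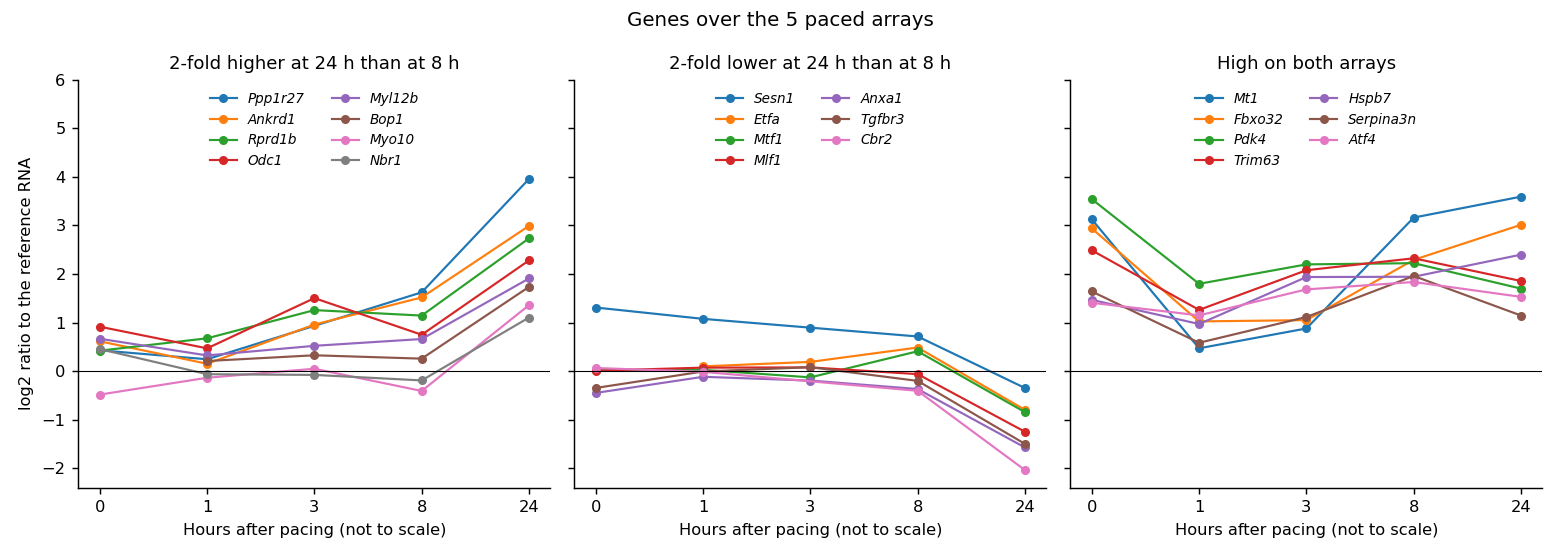
Log2 ratio to Pre (vertical axis) by hours after pacing (horizontal axis, times evenly spaced and not to scale), 1 array per time; a missing point was not measured. Genes of the left panel were 2-fold higher at 24 h than at 8 h, with Ppp1r27 reaching 3.96; genes of the middle panel were 2-fold lower, with Cbr2 at -2.04; genes of the right panel were high on both arrays, with Mt1 at 3.16 and 3.59.

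On the lower side, the lists of fatty acid oxidation and slow fibre genes kept both their direction and the size of their median after scaling. Etfa, the flavoprotein subunit that passes electrons from fatty acid oxidation to the respiratory chain, took the ratios 0.10, 0.19, 0.49 and -0.80 from 1 h to 24 h, with 0 h not measured. Its difference was -1.28 and -1.29 scaled, on 1 probe. Over the 23 genes of fatty acid uptake and oxidation the median difference was -0.23, with 16 below 0, and -0.25 after scaling, with 19 below 0. Cpt1b, the gate for fatty acid entry into mitochondria, stood at 0.03 and -0.60 (difference -0.63), and Lpl, which releases fatty acids from lipoproteins, at 0.55 and 0.01 (difference -0.54, 8 probes from -1.20 to 0.72). The beta-oxidation subunits Hadha and Hadhb stood the other way, at 0.23 (3 probes) and 0.21 (5 probes), as did the fatty acid carrier Cd36 at 0.24. Among members with at least 2 probes the median was -0.03, so the shift rests mainly on genes with 1 probe.

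Of the 20 slow fibre genes, 19 stood lower at 24 h than at 8 h, beside 48.1% of all genes. Their median ratio to Pre was -0.02 at 8 h and -0.25 at 24 h. The median difference was -0.25 both before and after scaling, and 16 of the 20 genes had several probes. No member reached 2-fold, and 1 reached 1.5-fold (3.59% of all genes did). Myl3, the slow light chain of myosin, was that gene, at 0.02 and -0.57 (difference -0.59, 3 probes, probe SD 0.52). With zeros kept as values the Myl3 difference was -0.44, under 1.5-fold. Mb, the oxygen store myoglobin, stood at 0.15 and -0.32, and its 7 probes all were lower, by between 0.15 and 1.01 (mean -0.47, probe SD 0.33). Pln, the inhibitor of the slow calcium pump, differed by -0.56 (5 probes, probe SD 0.62), the slow troponin gene Tnnt1 by -0.52 and the slow myosin gene Myh7 by -0.26 (6 probes, probe SD 0.43). Myl2 was the exception, at 0.09 over 4 probes, and -0.01 after scaling. Myoglobin and Fabp3 are also expressed in oxidative fast fibres.

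Over all measured members, the fast fibre, glycolysis and respiratory chain lists had medians closer to 0. The 18 fast fibre genes had a median difference of -0.09, with 13 below 0, which scaling turned to 0.03. Casq1, the calcium store protein, was low on both arrays (-1.16 and -1.43; difference -0.27 over 9 probes, probe SD 0.20), and scaling turned it to 0.39. Pfkm and Eno3, glycolytic enzymes of muscle, differed by -0.52 (6 probes, probe SD 0.20) and -0.60 (2 probes, probe SD 0.30), and by -0.15 and -0.18 scaled. With zeros kept as values the Eno3 difference was -0.12. The median was -0.05 for the 18 glycolysis genes (0.03 scaled, and -0.22 over the 13 with at least 2 probes, where the slow fibre median was -0.21), -0.05 for 78 respiratory chain genes (-0.07 scaled) and -0.01 for 23 genes of the TCA cycle and pyruvate dehydrogenase. Tcap, the titin cap of the Z-disc, stood at -0.52 and -1.21 with all 4 probes lower, by 0.49 to 0.80 (mean -0.69, probe SD 0.14; scaled -0.28). Tcap is also a target of the muscle clock. In the list of 10 clock and output genes, Nr1d2, a repressor of the clock, was the highest at 0.63 on 1 probe. Its difference was 0.85 scaled and 0.27 with zeros kept. The list median was 0.10 (0.22 scaled).

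Single genes of stress signalling were also lower. Sesn1, a sestrin that inhibits the growth kinase mTORC1, stood lower on each later paced array, with ratios of 1.31, 1.08, 0.90, 0.72 and -0.35 from 0 h to 24 h. Its difference from 8 h was -1.06 and -1.23 scaled, on 1 probe. Mtf1, the metal-sensing activator of metallothionein genes, stood at 0.41 at 8 h and -0.84 at 24 h (difference -1.25, scaled -1.22), having been between -0.13 and 0.03 at the earlier times. Mt1, a metallothionein gene that Mtf1 is known to activate, stood at 3.16 and 3.59, a difference of 0.43 that scaling turned to -1.31. Cbr2, a carbonyl reductase, had the lowest difference of any named gene: it stood at 0.07 at 0 h, -0.40 at 8 h and -2.04 at 24 h (difference -1.63, scaled -1.10). Serpina4-ps1, a pseudogene, stood at 0.49 and -0.78 (scaled difference -1.28).

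The other 13 genes at least 2-fold lower did not stay past that threshold after scaling. They included Tgfbr3, a co-receptor for TGF-beta (-0.20 and -1.50, difference -1.30), and Anxa1, a membrane-repair and anti-inflammatory annexin (-0.37 and -1.57, difference -1.20). Mlf1 was the 1 lower gene with several probes, at -1.41 and -0.96 (mean -1.19, probe SD 0.32; scaled -0.92). With zeros kept as values the Mlf1 difference was -0.917, under 2-fold. Genes of mitochondrial proteins among the 13 included Abhd10 (-1.43), Mocs1 (-1.07) and Mtrf1 (-1.07, or -0.53 with zeros kept). Abhd10 had no steady course: its ratios over the 5 arrays were 0.10, -1.08, -2.41, -0.34 and -1.77. The rest were Gpr153 at -1.33, Cdk20 at -1.32, Unc119b at -1.24, Tmem35b at -1.21, Rab3ip at -1.18, Anln at -1.17 and the globin gene Hbb-bh1 at -1.02.

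**Figure D5:**
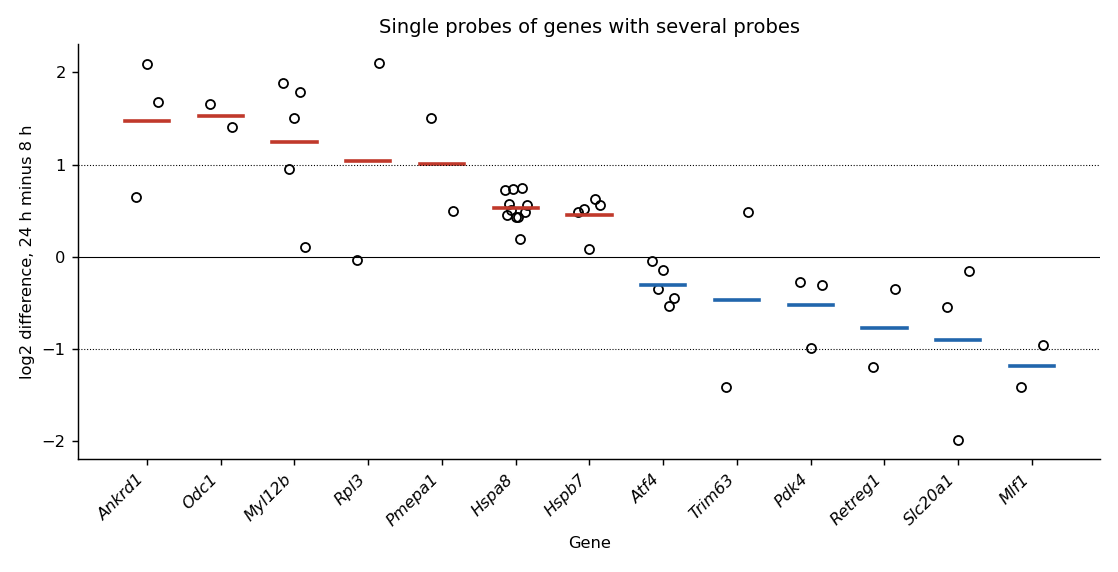
Log2 difference of 24 h minus 8 h (vertical axis) for single probes (open circles) of 13 genes with several probes; bars are means, red above 0 and blue below, and dotted lines mark 2-fold. The probes of Hspa8, Odc1 and Mlf1 lie on one side of 0, while those of Rpl3 and Trim63 lie on both sides.

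Some genes already far from Pre at 8 h were called by the scaled values alone. Since scaling stretches the 8 h ratios and shrinks those of 24 h, it can add lower calls only among genes above Pre and higher calls only among genes below it, so their side at 8 h is fixed by the method. The 20 genes 2-fold lower after scaling and not before lay 0.83 to 3.16 above Pre at 8 h. Unscaled, 19 of them were lower at 24 h than at 8 h and 1, Mt1, was higher. Pdk4, the kinase that holds back pyruvate oxidation, stood at 3.54 at 0 h, 2.22 at 8 h and 1.70 at 24 h, and its 3 probes differed by -0.27, -0.99 and -0.31 (mean -0.52, probe SD 0.40; scaled -1.59). Serpina3n, an acute phase protease inhibitor, stood at 1.96 and 1.15 (difference -0.81, scaled -1.68), and Ifrd1, a transcriptional co-regulator of muscle repair, at 1.93 and 1.16 (difference -0.77, scaled -1.63). Retreg1, through which parts of the endoplasmic reticulum are taken into autophagosomes, differed by -0.77 on 2 probes, at -0.35 and -1.20, which lay far apart at 8 h, at 3.13 and -0.42. In the other direction, 6 genes were 2-fold higher only after scaling. They include Cacna1s, the voltage sensor of muscle excitation, at -0.85 and -0.01 (difference 0.84, scaled 1.12), and Prkag3, the gamma subunit that AMP-activated kinase uses in fast muscle, at -1.58 and -1.35 (difference 0.22, scaled 1.01). In the unscaled values 19 of the 20 and 6 of the 6 lay nearer to Pre at 24 h than at 8 h, Mt1 being the exception. For the 6 and for most of the 20, those less far from Pre at 8 h, being called only after scaling forces this. It forces their unscaled direction as well, so neither is a separate result. At 24 h 11 of the 20 and 1 of the 6 were still at least 2-fold from Pre. Among them were Pdk4, Serpina3n, Ifrd1 and Prkag3, while Cacna1s stood at -0.01. Slc20a1 stood at 0.08 on the mean of 3 probes that disagreed, at 0.94, -0.86 and 0.15.

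Immediate early genes, which answer contraction within minutes, had no member past 1.5-fold in either direction among 18 (4.17% of all genes stood higher and 3.59% lower). Their median difference was -0.08, with 13 below 0, and -0.15 scaled. Sik1, a kinase induced by cAMP and calcium, stood at 1.16 and 1.06, a difference of -0.10 and -0.69 scaled. Jun was the highest of the list at 0.49 (-0.01 scaled) and Btg2 the lowest at -0.35 (-0.88 scaled).

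The muscle label was checked against fibre markers. All 12 markers were measured, with differences from -0.47 (Mb) to 0.51 (Des) and a median of -0.03; since the table holds ratios and no signals, the level of a marker in a sample could not be read. Markers of other cell types were sparse. Of 17 macrophage or monocyte markers 2 were measured, C1qb at -0.08 and Lyz2 at -0.07, and of 9 neutrophil and 7 Schwann cell markers 0 were. The 6 measured endothelial markers ran from -0.57 (Cdh5) to 0.13 (Pecam1) with a median of -0.18, the 5 of fibroblasts from -0.46 (Lum) to 0.22 (Dpt), and the 6 of smooth muscle from -0.48 (Cnn1) to 0.51 (Des). The adipocyte marker Fabp4 stood at 0.37 and -0.12 (difference -0.49, 7 probes, probe SD 0.26), and the globin gene Hba-a1 at 0.01 and -0.31 (difference -0.32, 8 probes, probe SD 0.44). Fabp4 and Lpl, both also active in fat and capillaries, thus were lower alongside the fatty acid oxidation list, and the part of these cells in that list's difference was not tested. In whole muscle, fewer cells of a type and less RNA per cell cannot be told apart.

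Genes with many probes are the best checked within these 2 arrays, on the probes measured on both. Of 121 genes with at least 5 probes, 3 (2.48%) stood 1.5-fold higher, Myl12b, Ankrd23 and Eif4g2, beside 4.17% of all genes, and 0 stood 1.5-fold lower, beside 3.59% of all genes; the lowest was Pln at -0.56. In this better-measured set the differences between 8 h and 24 h therefore ran from -0.56 to 1.25. Myl12b stood at 0.59 and Eif4g2 at 0.58, just under 1.5-fold, when zeros were kept as values.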

How the data were processed

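Total RNA of paced mouse muscle was measured on 2-channel arrays. The deposited values are log10 ratios, 1 per probe and array; the log base was read from the values, and the scanner, background correction and normalisation are not given in the sources used here. Here ratios were converted to log2, exact zeros were set to missing, and each array was centred on its median (-0.01 removed at 8 h and at 24 h). Measured probes were 95.2% at 8 h and 87.8% at 24 h. The platform annotation lists no symbol for 6979 probes, several for 284 and exactly 1 for 6609, of which 6599 were found in the RefSeq gene table (GRCm38.p6) by Entrez ID. Genes were called at 2-fold. With 1 array per group nothing was tested, and the number of arrays limits precision.

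The members and lists were chosen with earlier results of these data known. The rule for named genes took genes past 2-fold in both the centred and the scaled values, genes past 2-fold with at least 3 probes of one sign, list members past 2-fold, and each list's highest and lowest members and its 2 members with the most probes; other genes were named after their values were seen. The oligopyrimidine search was also added then. The script was tested on simulated data. Alternatives were other scalings, centrings, thresholds, handling of zeros and summaries over probes. Python 3.11.15, numpy 2.4.6 and pandas 2.3.3 were used.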

Additional observations from a re-analysis of the deposited data

How the results depend on the processing

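The 38 genes past 2-fold kept their sign under all 8 processing alternatives, and 14 stayed past 2-fold with one robust spread, 17 with one plain SD and 22 after quantile normalisation. The kept sign is a weak check, because only a large change of the values can turn a 2-fold difference. The higher count of 20 became 12 with one plain SD and 12 after quantile normalisation, and the share of higher genes among those called went from 52.6% to 40% and 38.7%. At 1.5-fold 152 genes stood higher and 131 lower, at 3-fold 3 and 1, and among genes with at least 2 probes 5 and 1. With one robust spread, one plain SD and quantile normalisation, in that order, list medians were 0.071, 0.14 and 0.067 for ribosomal proteins, 0.070, 0.12 and 0.088 for translation factors, 0.048, 0.10 and 0.082 for ribosome biogenesis, -0.012, 0.061 and 0.058 for Hsp70 and partners, -0.13, -0.0059 and 0.17 for small heat shock proteins, and -0.13, -0.066 and -0.055 for the proteasome. The small heat shock median was also 0.35 with medians over probes and 0.71 with gene means. The iron list turned to -0.044 with one robust spread and -0.043 after quantile normalisation. With at least 2 probes per gene, the medians were 0.0065 for ribosome biogenesis, -0.031 for fatty acid oxidation, 0.048 for exercise-responsive regulators, -0.22 for glycolysis and -0.21 for slow fibre genes. The cause of these moves was not tested. No paired analysis was possible because each group had 1 array.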
